A study of Mus musculus with 16 samples.

Results

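CD25-positive precursors of regulatory T cells, labelled preTreg, were compared with CD25-negative CD4 thymocytes labelled semimature single positive (smSP) in mouse thymus by ATAC-seq, an assay in which a transposase cuts accessible DNA and the cut sites are sequenced. The comparison was defined by its libraries: the 4 preTreg and the 4 smSP libraries, 8 of 16 in the series, joined by mouse, at every peak whose mean over these 8 libraries was at least 10 normalised reads. Of 73442 deposited peaks, 72668 met that mean and 774 did not, with 10.0 as the mean just inside the limit and 9.99 just outside. All animals were C57BL/6J mice that carried a Foxp3-GFP reporter on the X chromosome. The tested cells were TCRβ+CD4+CD8- thymocytes with CD25 and without Foxp3-GFP, and the smSP cells lacked both CD25 and Foxp3-GFP and were gated as CD24 high and TCRβ low. Each population came from 2 CNS4-deficient mice (CNS4KO/Y Foxp3GFP/Y) and 2 CNS4-sufficient mice (CNS4FL/Y Foxp3GFP/Y), and 1 mouse gave both libraries of a pair. CNS4 is a conserved non-coding sequence of the Foxp3 gene, and the ages of the mice are not given in the labels. Treg and mSP libraries of the same mice are used below only as levels set side by side.

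Regulatory T cells restrain immune responses and depend on the transcription factor Foxp3. In the thymus, CD4 thymocytes whose T cell receptor binds self peptides strongly raise CD25, the alpha chain of the IL-2 receptor, and such CD25-positive cells can turn on Foxp3 when IL-2 acts on them through STAT5. Semimature cells are those that have recently passed positive selection and still lose early thymocyte genes before they become mature and leave the thymus.

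The 8 libraries held 5799697 to 9968196 reads in peaks, 8808350 to 9436558 for preTreg and 5799697 to 9968196 for smSP. A principal component analysis of the 8 libraries put the populations apart on the first component, which carried 70.4% of the variance, against 7.51% on the next. A peak at chrX:7570739-7571052 held 0 reads in every library of the CNS4-deficient mice, and 48.0 and 52.1 normalised reads in preTreg cells and 67.9 and 87.1 in smSP cells of the CNS4-sufficient mice, which matches the genotype labels. The stage labels were less clear. Summed over the peaks of Cd24a, which encodes the maturation marker CD24, the signal was 176 to 237 in preTreg and 257 to 340 in smSP libraries, while libraries labelled mSP had 554 to 582. Peaks of Klf2, a factor for thymic egress, summed to 1394 to 1707 in smSP against 1012 to 1256 in mSP libraries, and the Rag1 peak had 107 to 139 in smSP against 177 to 228 in mSP. The labelled semimature cells were thus lower at Cd24a and Rag1 and higher at Klf2 than the labelled mature cells, which runs against the meaning of the 2 names, so smSP is used below as a label only. For 1 CNS4-deficient mouse, T8, the label fields disagree on which library is smSP; the titles were followed. In bulk libraries, fewer cells with an open site and less opening per cell cannot be told apart.

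Accessibility differed between preTreg and smSP cells at 35077 of the 72668 peaks tested, which is 48.3% (limma with the mouse as a block, adjusted p under 0.05). In preTreg cells 17307 peaks, 23.8%, were higher and 17770 peaks, 24.5%, were lower. The largest changes were mostly gains: a log2 fold of at least 2 was reached by 1547 peaks that were higher and by 274 that were lower, and a log2 fold of at least 3 by 652 and 3 peaks. At a log2 fold of at least 1 the order was the other way, with 4336 peaks higher, 5.97% of those tested, and 6733 lower, 9.27%. The direction was the same in all 4 mice at 92.4% of the peaks called higher and 93.2% of those called lower. Since the calls came from the same 4 mice, a shared direction is partly given by the call. The median log2 fold was 0.57 among peaks called higher and -0.85 among those called lower. By DESeq2 on the recovered reads 11245 peaks were higher and 12694 lower, so the size of these counts depends on the tool.

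**Figure D1:**
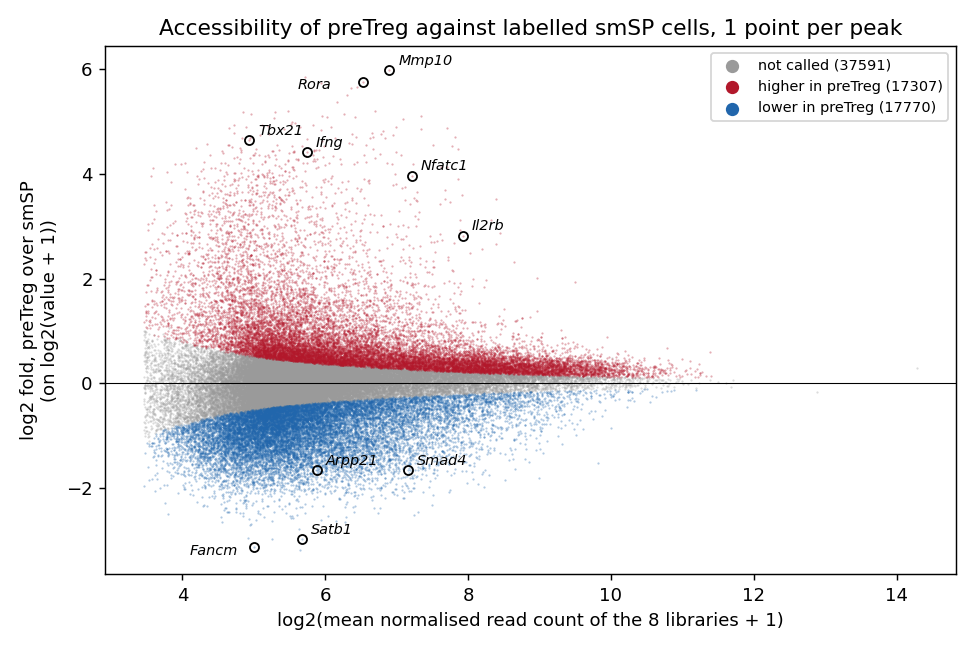
Each point is 1 of the 72668 peaks tested, with the log2 of its mean normalised read count plus 1 over the 8 libraries on the horizontal axis and the log2 fold of preTreg over smSP on the vertical axis. Red marks the 17307 peaks higher in preTreg cells, blue the 17770 lower and grey those not called; circles mark named peaks. Peaks with folds above 3 lie mostly at intermediate means, and only 3 called peaks lie below -3.

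Below, the 4 values of a population are given in the order CNS4-deficient mouse 1 and 2, then CNS4-sufficient mouse 1 and 2, as normalised reads per peak. The largest gain lay in Mmp10, which encodes a matrix metalloproteinase. Its peak at chr9:7509907-7510158 had 238, 173, 253 and 270 normalised reads in preTreg cells, against 2.69, 2.17, 3.45 and 2.35 in smSP cells. The groups did not overlap, and the log2 fold was 5.99 ± 0.23 (SE, adjusted p = 3.85e-22). Next came a peak 4417 bp outside Serpina3f, a serine protease inhibitor gene, with 124, 110, 82.2 and 88.3 in preTreg cells, against 0, 0, 8.06 and 0 in smSP cells. Its log2 fold of 5.86 ± 0.46 rests on smSP libraries of which 3 had no read. A pair of neighbouring peaks within Rora, the gene of the nuclear receptor RORα, had log2 folds of 5.76 and 5.74; the peak at chr9:69314501-69314702 had 210, 176, 155 and 177 in preTreg cells, against 4.03, 1.09, 3.45 and 1.57 in smSP cells. Within Dars, the aspartyl-tRNA synthetase gene, a peak reached a log2 fold of 5.66 ± 0.33, and within Gm31651 a peak reached 5.64 ± 0.30.

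These 6 sites were near closed in smSP cells and differed in Treg cells. The Mmp10 peak averaged 233 ± 42.5 normalised reads in preTreg, 106 in Treg and 2.67 ± 0.565 in smSP libraries (SD, n = 4). The Gm31651 peak averaged 160 ± 26.9 in preTreg, 12.9 in Treg and 2.64 ± 2.12 in smSP libraries.

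The largest losses were smaller in fold. A peak at chr9:85105401-85105645, with no gene within 50 kb, had 9.23, 10.1, 6.85 and 8.83 normalised reads in preTreg cells, against 110, 70.6, 104 and 73.7 in smSP cells, a log2 fold of -3.20 ± 0.23 (adjusted p = 4.09e-14). The populations were fully apart there. Another gene-free peak at chr1:35640380-35640454 fell by 3.18 on the log2 scale, and 2 peaks within Fancm, which encodes a DNA repair translocase, had log2 folds of -3.14 and -2.99. A peak 24430 bp outside Satb1, a chromatin organiser of thymocytes, had 10.2, 8.27, 12.8 and 10.6 in preTreg cells, against 101, 76.1, 92.1 and 90.2 in smSP cells. No value of one population reached the other at this site, and the log2 fold was -2.99 ± 0.21. The peak within Gm36284 fell by 2.96.

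Losses and gains were gathered at some genes. Satb1 had the most peaks with a 2-fold or larger loss, 49 of 74 tested, and 67 of the 74 were called lower, none higher. At 2610307P16Rik 42 of 48 peaks were lower, 35 of them by 2-fold, and at Tcra, the T cell receptor alpha locus, 34 of 42 were lower, 24 of them by 2-fold. At Igh, the immunoglobulin heavy chain locus, 36 of 46 peaks were lower and 2 higher. Foxp1, a forkhead factor of T cell quiescence, had 54 peaks lower and 7 higher of 92, and Bach2, a repressor of effector genes, had 41 lower and 15 higher of 77, so both held changes in both directions. Gains of at least 2-fold were most numerous at Asap1, Ifng, Ikzf2 and Runx2, with 14 peaks each, at Cdk6 with 13 and at Atxn1 with 12. At Ifng, Cdk6 and Atxn1 17 of 23, 24 of 31 and 19 of 31 peaks were higher and 1, 0 and 0 lower, while Ikzf2, the gene of Helios, had 18 higher and 10 lower of 52. Long genes hold more peaks, and these counts were not adjusted for length; Ifng spans 4.85 kb and Igh 2751 kb.

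**Figure D2:**
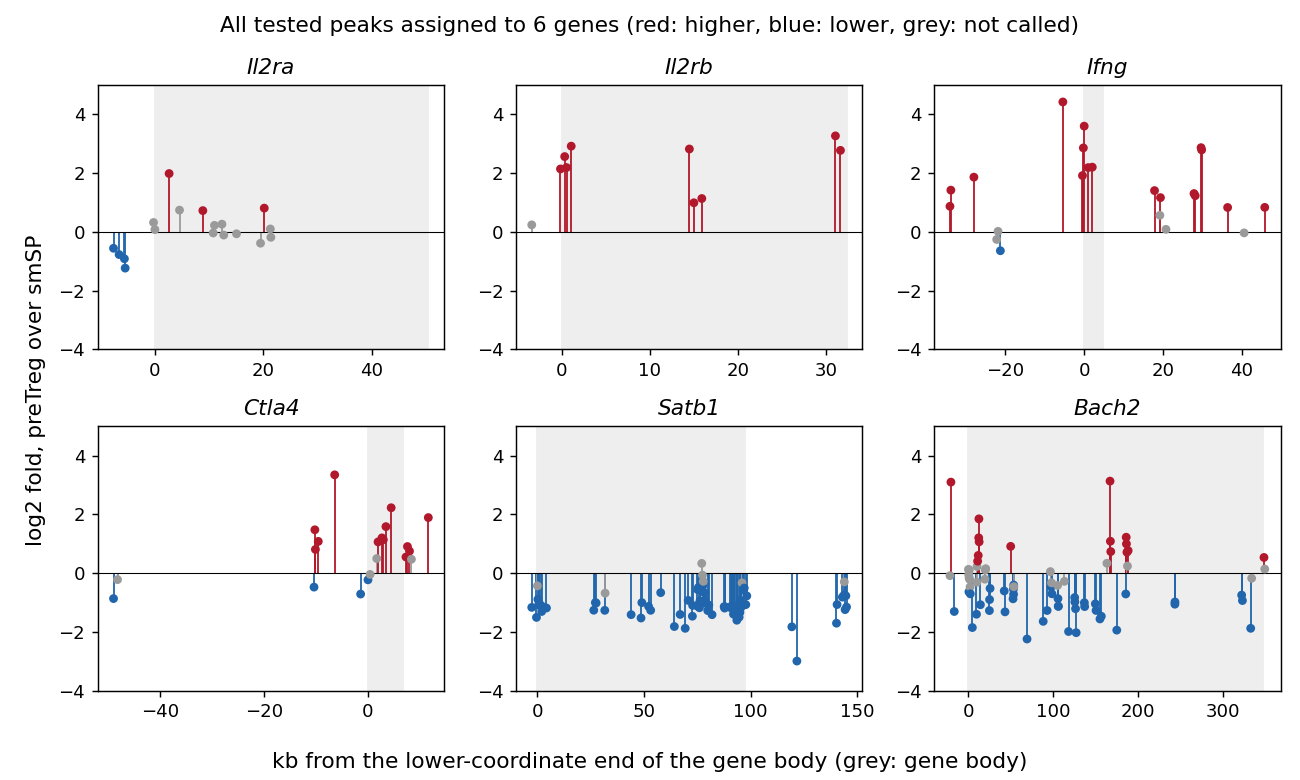
Each stem is 1 tested peak, placed by its distance in kb from the lower-coordinate end of the gene body (grey band), with the log2 fold of preTreg over smSP on the vertical axis for 6 genes. Red stems are higher in preTreg cells, blue lower and grey not called. At Il2rb and Ifng nearly all called peaks point up, at Satb1 all point down, and Il2ra, Ctla4 and Bach2 hold both.

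The receptor chains of IL-2 differed in pattern. Il2rb, which encodes the beta chain that signals to STAT5, had 9 of 10 peaks higher and none lower, while Il2ra, whose protein CD25 was the sort marker, had 3 peaks higher, 4 lower and 11 not called of 18. The Il2rb peak at chr15:78493473-78494028, within the gene, had 329, 441, 465 and 462 normalised reads in preTreg cells, against 49.7, 54.3, 58.7 and 74.5 in smSP cells. It was higher in every mouse without overlap, by a log2 fold of 2.82 ± 0.11 (adjusted p = 6.03e-22), and Treg libraries averaged 318. A peak at chr15:78510279-78510437 near the other end of the gene had the largest Il2rb fold, 3.27 ± 0.38, with means of 43.8 ± 4.52 in preTreg and 4.77 ± 3.84 in smSP libraries.

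At the Il2ra start, the peak at chr2:11642490-11642695 had 114, 91.9, 82.2 and 75.9 normalised reads in preTreg cells, against 79.3, 89.1, 69.0 and 54.9 in smSP cells. The groups overlapped, and the log2 fold of 0.32 ± 0.14 was not called (adjusted p = 0.0596). The neighbouring peak at chr2:11642734-11642948 had a log2 fold of 0.08 ± 0.13 (adjusted p = 0.638). Within the gene, the peak at chr2:11645395-11645531 rose, with 32.3, 23.0, 26.5 and 31.8 in preTreg cells, against 4.03, 12.0, 6.90 and 4.71 in smSP cells, a log2 fold of 1.98 ± 0.35, and Treg libraries averaged 55.8. The 4 lower peaks lay 5363 to 7504 bp outside the gene and fell by 0.56 to 1.23 on the log2 scale; the largest loss was at chr2:11637313-11637429, with means of 26.0 ± 6.38 in preTreg and 61.3 ± 7.40 in smSP libraries. Summed over 19 peaks, Il2ra had 1330 to 1735 normalised reads in preTreg, 2111 to 2189 in Treg and 1414 to 1682 in smSP libraries, so preTreg and smSP overlapped. Of the called Il2ra peaks, that at chr2:11635164-11635288 was no longer called by DESeq2 (adjusted p = 0.0892) or without CNS4-deficient mouse 2 (limma adjusted p = 0.136), and that at chr2:11662855-11663108 was not called in the CNS4-sufficient mice alone (limma adjusted p = 0.213).

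Over the list of 16 IL-2 and STAT5 genes, 62 of 190 peaks were higher and 43 lower, with a median log2 fold of 0.15, beside 0.02 over all peaks. The shares were 32.6% and 22.6%, beside 23.8% and 24.5% over all peaks, and Il2rb, Cish and Il2 held 9, 10 and 4 of the 62. Farther than 1 kb from a listed start, 41 of 142 list peaks were higher and 41 lower (28.9% each). Over all such far peaks the shares were 20.9% and 34.5%. Cish, a feedback inhibitor of cytokine signalling that STAT5 induces, had 10 of 11 peaks higher and none lower. Its peak 370 bp outside the gene had 37.9, 31.2, 37.7 and 37.9 normalised reads in preTreg cells, against 4.03, 4.35, 5.75 and 3.92 in smSP cells, a log2 fold of 2.76 ± 0.34. Il2, the gene of the cytokine itself, had 4 of 6 peaks higher and 1 lower. The Il2 peak at chr3:37128403-37128615 had 72.0, 78.1, 72.8 and 77.7 in preTreg cells, against 6.72, 4.35, 9.21 and 3.92 in smSP cells. It was clear of overlap, with a log2 fold of 3.50 ± 0.27, and stood at 7.58 on average in Treg libraries, near the smSP level. Of the kinase and STAT genes, Jak1 had 2 peaks higher and 10 lower of 29 and Stat5b 1 higher and 10 lower of 22, while Jak3 had 1 higher and 0 lower of 2 and Stat5a 1 higher and 1 lower of 3.

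**Figure D3:**
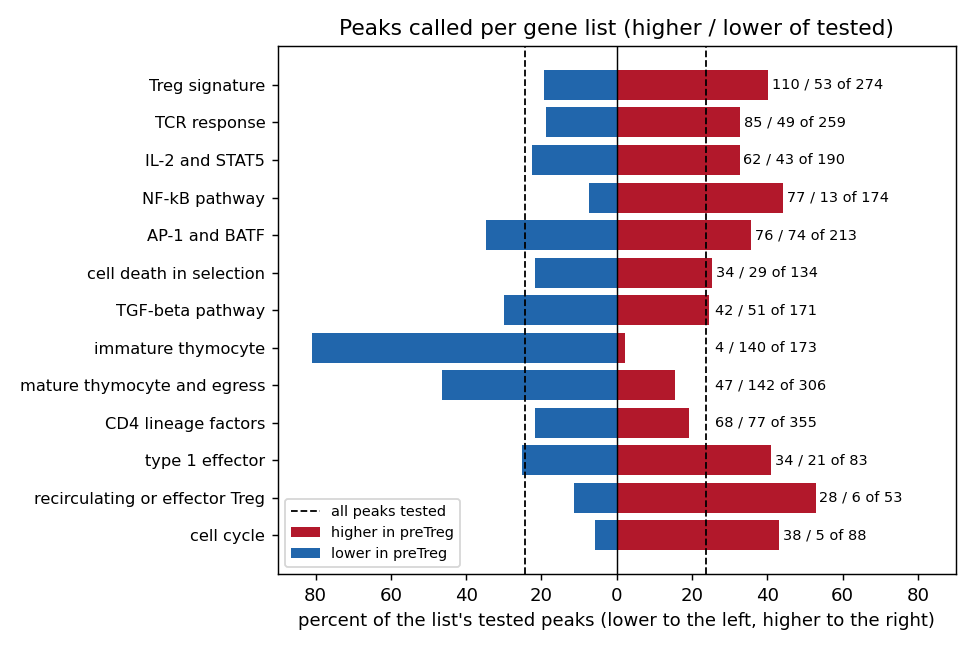
Bars give the percent of each gene list's tested peaks that were lower (blue, to the left) or higher (red, to the right) in preTreg than in smSP cells, with the counts printed beside them. Dashed lines mark the shares over all peaks, 24.5% lower and 23.8% higher. The immature thymocyte list reaches 80.9% lower, and the recirculating or effector Treg list 52.8% higher.

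Genes of the Treg signature were higher at 110 and lower at 53 of 274 peaks (40.1% and 19.3%), with a median log2 fold of 0.24. With 1 peak per gene, the strongest, the median was 0.04. Ctla4, the inhibitory receptor of Treg cells, had 13 peaks higher and 4 lower of 21. Its peak 6220 bp outside the gene, at chr1:60902478-60902805, had 45.2, 47.8, 89.9 and 78.5 normalised reads in preTreg cells, against 12.1, 4.35, 3.45 and 3.92 in smSP cells. Every preTreg library lay above every smSP library, and the log2 fold was 3.34 ± 0.32 (adjusted p = 7.13e-11). Tnfrsf9, the gene of the co-stimulatory receptor 4-1BB, had 7 higher and 1 lower of 11, with a peak at 353 ± 18.1 in preTreg and 66.3 ± 10.8 in smSP libraries (log2 fold 2.41 ± 0.11). Nt5e, which encodes the ectoenzyme CD73, had 7 higher and 2 lower of 12, and its peak at chr9:88332513-88332838 had 177, 137, 124 and 134 in preTreg cells, against 25.5, 8.69, 11.5 and 7.84 in smSP cells (log2 fold 3.46 ± 0.20). An Ikzf2 peak averaged 97.3 ± 31.4 in preTreg, 64.8 in Treg and 6.01 ± 2.77 in smSP libraries, a log2 fold of 3.84 ± 0.28. Other members did not share the direction: Gpr83 had 0 higher and 3 lower of 5 peaks, Itgae 0 and 2 of 4, and Nrp1 8 and 8 of 27.

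The Foxp3 locus changed little. Of 12 peaks there, 8 had enough signal to be tested, 3 were called, all with log2 folds of 0.33 or less, and 4 peaks within Foxp3 and its neighbour Ccdc22 fell below the limit. The peak at chrX:7574218-7574552 had 376, 446, 439 and 388 normalised reads in preTreg cells, against 333, 288, 363 and 341 in smSP cells. The values just cleared each other, and the log2 fold was 0.32 ± 0.08 (adjusted p = 0.00126). That call was lost without CNS4-deficient mouse 2 (limma adjusted p = 0.0566) and in the CNS4-sufficient mice alone (limma adjusted p = 0.0938). At chrX:7574701-7574963, in the long non-coding gene Flicr, the log2 fold was 0.21 ± 0.09 (adjusted p = 0.0459), and at chrX:7605300-7605529 it was 0.33 ± 0.13 (adjusted p = 0.0304), both with overlapping groups and both no longer called by DESeq2 (adjusted p = 0.2 and 0.175) or without CNS4-deficient mouse 1 (limma adjusted p = 0.0534 and 0.28). The peak absent from CNS4-deficient mice can be compared only in the 2 CNS4-sufficient mice, where preTreg cells were lower in both, with a log2 fold of -0.61 (limma adjusted p = 0.0168). The 4 low peaks within Foxp3 and Ccdc22 held 0 to 4 reads per library in preTreg and in smSP cells, against 22 to 177 in Treg cells. Their summed signal was 3.53 to 9.42 in preTreg, 290 to 443 in Treg and 4.03 to 8.69 in smSP libraries. These sites, open in Treg cells, were thus near the limit of detection in both populations compared here.

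Genes induced by the T cell receptor were higher at 85 and lower at 49 of 259 peaks (median log2 fold 0.15). The shares were 32.8% and 18.9%, beside 23.8% and 24.5% over all peaks, and 1 gene, Nfatc1, held 23 of the 85. Nfatc1, a calcium-regulated factor downstream of the receptor, had 23 of 39 peaks higher and none lower. Its largest change had 300, 274, 265 and 270 normalised reads in preTreg cells, against 21.5, 16.3, 16.1 and 14.1 in smSP cells. No library came near the other population, the log2 fold was 3.96 ± 0.15 (adjusted p = 3.32e-22), and Treg libraries averaged 31.2. Cd83, an activation marker, had 7 peaks higher and 1 lower of 11, and Lag3, an inhibitory receptor, 3 higher and 1 lower of 7, with a peak at 26.8 ± 7.14 in preTreg and 12.7 ± 3.51 in smSP libraries that was not called in the CNS4-deficient mice alone (limma adjusted p = 0.0819). The immediate early genes Nr4a1 and Egr2 had 4 higher and 1 lower of 12 and 0 higher and 4 lower of 9.

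NF-kB carries signals of the T cell receptor and of TNF receptor family members to the nucleus. Its list had 77 peaks higher and 13 lower of 174 (44.3% and 7.47%), with a median log2 fold of 0.31. Nfkb2, a subunit gene of the non-canonical pathway, had 6 of 6 tested peaks higher. The peak at its start, chr19:46304522-46304735, had 218, 242, 255 and 259 normalised reads in preTreg cells, against 111, 108, 96.7 and 126 in smSP cells. The change was modest and free of overlap, a log2 fold of 1.14 ± 0.11. Bcl3, a nuclear partner of NF-kB, had 6 higher and 0 lower of 7, and Tnfaip3, which encodes the inhibitor A20, 15 higher and 2 lower of 27. Its single largest change was a loss, 49129 bp outside the gene, with means of 8.99 ± 3.30 in preTreg and 27.8 ± 5.65 in smSP libraries (log2 fold -1.57 ± 0.31).

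AP-1 proteins are dimers of Jun, Fos and related factors, and the genes of this family split by kind. Over the list 76 peaks were higher and 74 lower of 213 (35.7% and 34.7%, both above the shares over all peaks). Fosb had 13 of 13 peaks higher, Fos 10 of 18, Junb 9 of 12, Batf 8 of 11 and Atf3 5 of 6, whereas the repressors Bach1 and Bach2 had 25 of 36 and 41 of 77 peaks lower. The Fosb peak with the largest change, 15719 bp outside the gene, had 72.9, 80.0, 91.6 and 94.4 normalised reads in preTreg cells, against 12.1, 18.5, 13.8 and 12.6 in smSP cells (log2 fold 2.50 ± 0.20). The Atf3 peak at chr1:191183158-191183338 had 72.9, 74.4, 78.8 and 117 in preTreg cells, against 13.4, 10.9, 18.4 and 14.9 in smSP cells (log2 fold 2.49 ± 0.21). Both peaks were apart in all libraries. A peak 41821 bp outside Bach1 had 30.8 ± 7.35 in preTreg and 85.5 ± 14.7 in smSP libraries, a log2 fold of -1.46 ± 0.18. Jun was the exception among the Jun genes, with 0 peaks higher and 7 lower of 13.

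Type 1 effector genes held large gains. Of 83 peaks 34 were higher and 21 lower (median log2 fold 0.09), and 26 of the 34 rose by at least 2-fold. Ifng alone held 17 of the 34 and 14 of the 26. The shares were 41.0% higher and 25.3% lower, beside 23.8% and 24.5% over all peaks. Tbx21, the gene of the type 1 factor T-bet, had 3 of 3 peaks higher, and the largest, at chr11:97109032-97109283, had 57.2, 46.0, 65.1 and 62.7 normalised reads in preTreg cells, against 2.69, 1.09, 1.15 and 0.784 in smSP cells. The smSP values are 1 to 2 reads per library; the log2 fold was 4.64 ± 0.39 (adjusted p = 1.77e-12). Ifng, which encodes interferon gamma, had a peak 5191 bp outside the gene with 64.6, 98.3, 127 and 115 in preTreg cells, against 5.37, 2.17, 5.75 and 2.35 in smSP cells (log2 fold 4.42 ± 0.29). Cxcr3, a chemokine receptor gene of type 1 cells, had both of its peaks higher, one at 102 ± 19.1 in preTreg and 3.49 ± 2.44 in smSP libraries (log2 fold 4.66 ± 0.30). Nkg7, a cytotoxic granule gene, had both of its peaks higher as well. In Treg libraries the same Tbx21 peak had 2.76 to 8.09 and the Ifng peak 2.02 to 9.60 normalised reads, so these sites were open in preTreg libraries and near closed in Treg and smSP libraries. The Cxcr3 peak and the Nkg7 peak at its start averaged 17.0 and 23.5 in Treg libraries. These means lay between those of smSP, 3.49 and 5.67, and of preTreg libraries, 102 and 54.3. The receptor gene Il12rb2 went the other way, with 0 peaks higher and 13 lower of 16. Of the remaining members, Ccl5 and Il18rap had their only tested peak higher, and Il12rb1 had 2 of 3 higher. Gzmb had 2 higher and 1 lower of 6, Il18r1 1 and 3 of 8 and Prdm1 3 and 3 of 17. The only tested Eomes peak was not called.

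Genes of recirculating or effector Treg cells were higher at 28 and lower at 6 of 53 peaks (52.8% and 11.3%, median log2 fold 0.47). Their summed signal was 5004 to 5319 in preTreg and 3485 to 3819 in smSP libraries. Il10, an inhibitory cytokine gene, had 6 of 6 peaks higher, one of them with 127, 104, 99.3 and 113 normalised reads in preTreg cells, against 4.03, 3.26, 4.60 and 7.84 in smSP cells (log2 fold 4.29 ± 0.25). Klrg1, a marker of effector cells, had both peaks higher, and Areg, the gene of the growth factor amphiregulin, 3 of 3. The Areg peak named by rule had 20.6 ± 8.20 in preTreg, 51.2 in Treg and 1.65 ± 2.58 in smSP libraries. The CD25-positive, Foxp3-GFP-negative gate does not by itself leave out activated T cells that have returned to the thymus, and the part of such cells in the type 1 and effector results was not tested.

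Markers of other cells moved unevenly. Of the innate-like T and NK markers 5 of 29 peaks were higher and 13 lower, with a summed signal of 1333 to 1464 in preTreg and 1792 to 1960 in smSP libraries, and Ncr1 and Fcer1g had no tested peak. Gamma-delta T cell markers had 11 higher and 8 lower of 24 peaks, and 9 of the 11 were Maf, which activated CD4 cells also use; the sum was 2270 to 2416 in preTreg and 1793 to 1897 in smSP libraries. B cell markers had 0 higher and 4 lower of 6 peaks, with no tested peak at Ms4a1, Cd79b and Cd22, and sums of 152 to 213 in preTreg and 331 to 350 in smSP libraries. CD8 T cell markers had 1 higher and 4 lower of 7, with sums of 278 to 331 in preTreg and 383 to 490 in smSP libraries. Myeloid and dendritic markers had 3 higher and 13 lower of 20, sums of 1245 to 1499 in preTreg and 1745 to 1868 in smSP libraries, and no tested peak at Lyz2, Itgax, Csf1r, Siglech and Cd14. All 9 tested Flt3 peaks were lower, while the peak at Cebpa was higher, with 125 ± 15.6 in preTreg and 16.5 ± 8.39 in smSP libraries. Erythroid and thymic stroma markers had 0 higher and 1 lower of 4 and 0 higher and 3 lower of 7 peaks.

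**Figure D4:**
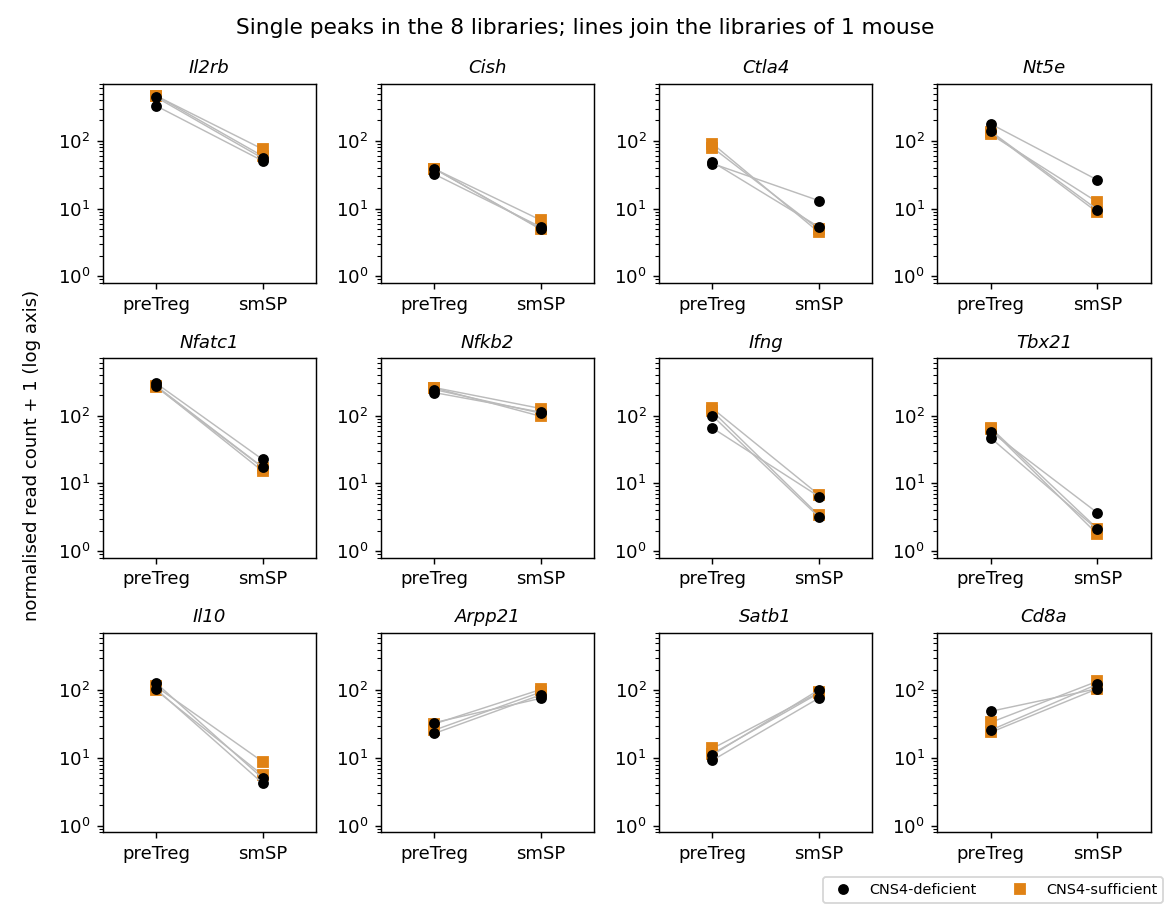
Each panel is 1 peak of the named gene, with normalised reads plus 1 on a log axis, preTreg libraries at the left and smSP libraries at the right; black circles are CNS4-deficient and orange squares CNS4-sufficient mice, and lines join the libraries of 1 mouse. In the 9 panels from Il2rb to Il10 all lines fall towards smSP, and in those of Arpp21, Satb1 and Cd8a all lines climb towards smSP.

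Early thymocyte genes showed the most uniform loss. Of 173 peaks of the immature thymocyte list 140 were lower and 4 higher in preTreg cells, with a median log2 fold of -1.06, and 96 were lower by at least 2-fold. Arpp21, a gene of CD4+CD8+ thymocytes, had 20 of 20 peaks lower, Dntt, which encodes terminal transferase, 14 of 14, Sox4 13 of 13 and the chemokine receptor gene Ccr9 10 of 10. The Arpp21 peak at chr9:112214145-112214267 had 32.3, 22.1, 24.8 and 30.9 normalised reads in preTreg cells, against 75.2, 84.8, 93.2 and 102 in smSP cells. The populations stayed apart, and the log2 fold was -1.66 ± 0.18 (adjusted p = 5.06e-10). A peak within Cd8a, the CD8 alpha chain gene, had 48.0, 24.8, 32.5 and 22.9 in preTreg cells, against 105, 122, 135 and 104 in smSP cells (log2 fold -1.88 ± 0.17), and the mean in Treg libraries was 59.8. Rag2, a recombinase gene, had both peaks lower, with 13.4 ± 2.62 in preTreg and 34.2 ± 7.62 in smSP libraries at its start. Of the 9 tested Cd24a peaks 3 were lower and none higher, but 2 of the 3 calls, at chr10:43579081-43579234 and chr10:43579818-43579985, were lost by DESeq2 (adjusted p = 0.119 and 0.19). They were also lost in each genotype alone and without CNS4-deficient mouse 2 (limma adjusted p = 0.168 and 0.0847) or CNS4-sufficient mouse 1 (limma adjusted p = 0.0662 and 0.156). Without CNS4-sufficient mouse 2 the call at chr10:43579081-43579234 was lost (limma adjusted p = 0.0506), and without CNS4-deficient mouse 1 that at chr10:43579818-43579985 (limma adjusted p = 0.092). The largest change, at chr10:43578879-43579061, had means of 26.4 ± 6.95 in preTreg and 49.5 ± 6.73 in smSP libraries (log2 fold -0.90 ± 0.20). Since libraries labelled mSP had a still higher Cd24a signal than smSP, these values set preTreg cells below both CD25-negative labels.

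Genes of mature thymocytes and of egress were also lower on balance, with 142 peaks lower and 47 higher of 306. The shares were 46.4% lower and 15.4% higher, beside 24.5% and 23.8% over all peaks. Foxp1 alone held 92 of the 306 peaks and 54 of the 142 lower ones. The median log2 fold of the list was -0.34, and -0.03 with 1 peak per gene. Ccr7, a receptor that guides thymocytes to the medulla, had 15 of 24 lower, Klf2 7 of 14 and Lef1 20 of 37, with 0, 0 and 2 higher. Cd44, an adhesion receptor of activated and memory cells, was opposite, with 15 higher and 6 lower of 24, among them a peak with 49.9, 23.9, 29.1 and 53.8 in preTreg cells, against 2.69, 5.43, 0 and 8.63 in smSP cells (log2 fold 3.29 ± 0.42). Cd52, a small glycoprotein gene of lymphocytes, had 2 higher and 0 lower of 3. The same list thus held genes that leaned lower, such as Ccr7, and genes that leaned higher, such as Cd44.

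Factors of the CD4 lineage changed at a share of peaks below the background in both directions, with 68 of 355 higher and 77 lower (median log2 fold -0.04, and 0.17 with 1 peak per gene). Cd4 itself had 0 of 5 peaks called. Tox, a factor of CD4 lineage development, had 12 higher and 22 lower of 58, and its peak at chr4:6882763-6882996 had 73.2 ± 18.6 in preTreg and 11.8 ± 4.02 in smSP libraries (log2 fold 2.55 ± 0.23). Tcf3, which encodes the E protein E2A, had 3 higher and 1 lower of 4, and its inhibitor Id3 also 3 higher and 1 lower, of 7. The lower Tcf3 peak was not called by DESeq2 (adjusted p = 0.13), in either genotype alone (limma adjusted p = 0.141 in CNS4-deficient and 0.0663 in CNS4-sufficient mice), with the other label reading of the T8 libraries (limma adjusted p = 0.112), or without CNS4-deficient mouse 1 (limma adjusted p = 0.0996) or CNS4-sufficient mouse 1 (limma adjusted p = 0.0525).

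Genes of cell death in selection were higher at 34 and lower at 29 of 134 peaks, close to the background shares, with a median log2 fold of 0.02 that changed sign with the scaling and lay between -0.04 and 0.08. Single genes differed. Pmaip1, the gene of the pro-apoptotic protein Noxa, had 8 of 8 peaks higher, the largest with 45.2, 31.2, 57.4 and 58.2 normalised reads in preTreg cells, against 6.72, 6.52, 5.75 and 3.92 in smSP cells (log2 fold 2.85 ± 0.31). Bcl2l1, the gene of the survival protein Bcl-xL, had 6 higher and 2 lower of 16. Bcl2l11, which encodes the pro-apoptotic protein Bim, had 0 higher and 5 lower of 12, with a peak at 26.7 ± 4.61 in preTreg and 83.1 ± 12.0 in smSP libraries (log2 fold -1.61 ± 0.18).

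TGF-beta supports Foxp3 induction and Treg survival. Its list had 42 peaks higher and 51 lower of 171, which is 24.6% and 29.8%, near the shares over all peaks, and the median log2 fold of 0.00 lay between -0.05 and 0.04 over the alternatives in scaling, tool and libraries, with 0.17 for 1 peak per gene. The receptor genes Tgfbr1 and Tgfbr3 had 1 higher and 4 lower of 8 and 2 higher and 13 lower of 29, and Smad4, the shared signal transducer gene, had 1 higher and 7 lower of 11. The Smad4 peak with the largest change had 75.7, 76.3, 63.4 and 53.8 normalised reads in preTreg cells, against 189, 262, 211 and 202 in smSP cells. It was lower in all 4 mice without overlap, with a log2 fold of -1.67 ± 0.12 (adjusted p = 5.44e-14). Smad3 was the counterpart, with 12 higher and 3 lower of 22.

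Cell cycle genes had 38 peaks higher and 5 lower of 88 (median log2 fold 0.28). These are 43.2% and 5.68%, beside 23.8% and 24.5% over all peaks. Most of the gains were those of 1 gene: of the 38, 24 belonged to Cdk6, a G1 kinase gene with 31 of the 88 tested peaks. The largest Cdk6 change had 77.6, 64.3, 106 and 136 normalised reads in preTreg cells, against 14.8, 15.2, 10.4 and 3.92 in smSP cells (log2 fold 3.09 ± 0.32). At the proliferation genes Mki67 and Cdk1 the changes at the start were smaller. The Mki67 peak averaged 188 ± 6.93 in preTreg and 122 ± 12.4 in smSP libraries, and the Cdk1 peak 65.8 ± 8.02 in preTreg and 39.0 ± 4.20 in smSP libraries. Both were called, with log2 folds of 0.62 ± 0.11 and 0.74 ± 0.17, the call at Cdk1 not in the CNS4-deficient mice alone (limma adjusted p = 0.0877).

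Counts per list moved with the setting. In the CNS4-deficient mice alone, which leaves 2 mice, the NF-kB list had 44 peaks higher, the Treg signature list 28 lower, the CD4 lineage list 39 lower and the type 1 list 11 lower. By DESeq2 the TCR response list had 56 and the TGF-beta list 21 peaks higher. Neighbouring peaks share a locus and are not independent, and assignment to a gene is by position only.

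The direction of change went with distance from gene starts. Within 1 kb of a listed start 7765 of 27282 peaks, 28.5%, were higher in preTreg cells and 8.43% lower, whereas farther away 20.9% of 42947 were higher and 34.5% lower. Large changes were rarer at starts in both directions: 2.23% of the near peaks were higher and 1.40% lower by at least 2-fold, against 8.33% and 14.2% of the far ones. The loss share grew to 37.4% at 20 to 100 kb. The share of all signal that lay within 1 kb of starts was itself higher in preTreg, 54.4% to 57.3%, than in smSP libraries, 51.0% to 52.8%, and its part in these counts was not tested. Strong peaks had more calls: of the 18167 peaks with the highest means 40.6% were higher and 19.3% lower, and of the 18167 with the lowest means 16.6% were higher and 28.7% lower. Chromosome 18 was left out of the distance classes because the table of starts lacks it.

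**Figure D5:**
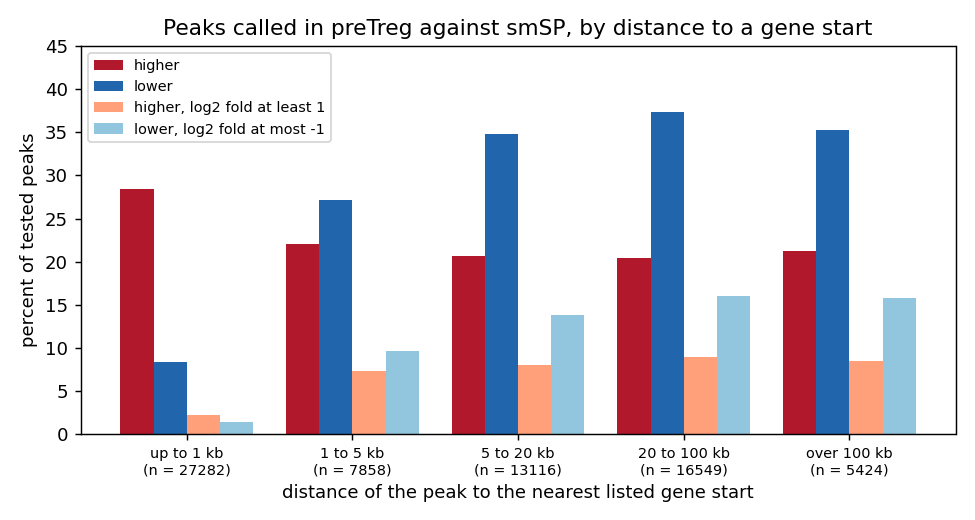
Bars give the percent of tested peaks that were called higher (red) or lower (blue) in preTreg than in smSP cells, and the part of each with a 2-fold or larger change (pale bars), by distance to the nearest listed gene start in kb. Within 1 kb 28.5% were higher and 8.43% lower, and at 20 to 100 kb 20.5% and 37.4%.

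Promoters with a large gain held AP-1 letters more often than other promoters in which a peak was tested. Windows of 300 bases, 250 before to 50 after a start (RefSeq, GRCm38.p6), were searched on both strands. The AP-1 letters TGANTCA stood in 14.0% of the 250 promoters whose peak rose by at least 2-fold, in 7.77% of the 103 whose peak fell by at least 2-fold, in 4.46% of the 10527 with a tested peak and in 7.81% of all 32851. At any size of change, AP-1 letters stood in 4.64% of the 5301 promoters called higher and in 6.23% of the 690 called lower. The ETS letters CCGGAAG stood in 22.9% of those higher, in 5.80% of those lower and in 20.9% of those with a tested peak. With a 2-fold change, ETS letters stood in 3.6% of promoters whose peak rose and in 0.971% of those whose peak fell. The median GC content was 60.7% in the promoters with a 2-fold gain, 52.7% in those with a 2-fold loss and 62.0% in those with a tested peak. It was 63.3% in promoters called higher at any size and 57.0% in those called lower. These shares are descriptions without a test.

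Counted once per peak, 30 promoter peaks higher by at least 2-fold held AP-1 letters inside the peak, whereas the shares above count windows. The windows of Tnfsf13b, which encodes the cytokine BAFF, and of Srxn1, the gene of the antioxidant enzyme sulfiredoxin, are printed because they had the largest folds among these, with TGANTCA in capitals. Those of Ifng and Nkg7 are printed for the type 1 genes, with the STAT letters TTCNNNGAA in capitals. That of Atf3 is printed for the AP-1 genes, with the SP/KLF letters GGGCGGGG (read on the other strand) in capitals. Those of Ccr9 and Arpp21 are printed for the early thymocyte genes that fell; Arpp21 has AP-1 letters in capitals and Ccr9 none of the 8 motifs searched. All run 5′ to 3′ on the gene's strand.
Tnfsf13b: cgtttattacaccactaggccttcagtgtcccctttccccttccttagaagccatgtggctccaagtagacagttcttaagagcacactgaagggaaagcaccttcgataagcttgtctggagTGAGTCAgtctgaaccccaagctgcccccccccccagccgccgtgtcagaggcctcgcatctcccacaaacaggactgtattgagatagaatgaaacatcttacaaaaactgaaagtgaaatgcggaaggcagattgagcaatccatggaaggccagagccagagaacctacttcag
Srxn1: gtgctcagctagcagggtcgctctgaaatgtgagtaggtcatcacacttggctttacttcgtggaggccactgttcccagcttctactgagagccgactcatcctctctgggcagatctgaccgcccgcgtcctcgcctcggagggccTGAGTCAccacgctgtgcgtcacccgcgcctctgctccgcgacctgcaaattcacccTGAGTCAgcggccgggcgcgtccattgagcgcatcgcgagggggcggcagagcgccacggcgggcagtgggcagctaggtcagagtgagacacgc
Ifng: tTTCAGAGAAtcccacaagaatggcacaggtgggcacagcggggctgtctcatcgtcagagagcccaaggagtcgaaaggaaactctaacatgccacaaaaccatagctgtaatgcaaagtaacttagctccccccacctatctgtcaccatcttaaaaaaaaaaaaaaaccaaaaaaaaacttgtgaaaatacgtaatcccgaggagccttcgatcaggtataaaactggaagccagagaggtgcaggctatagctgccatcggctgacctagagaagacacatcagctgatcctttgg
Nkg7: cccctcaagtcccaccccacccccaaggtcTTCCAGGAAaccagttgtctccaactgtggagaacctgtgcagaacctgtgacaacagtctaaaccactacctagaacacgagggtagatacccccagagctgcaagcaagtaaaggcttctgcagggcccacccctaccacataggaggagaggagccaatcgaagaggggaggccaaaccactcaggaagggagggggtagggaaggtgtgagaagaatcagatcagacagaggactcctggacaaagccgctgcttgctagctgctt
Atf3: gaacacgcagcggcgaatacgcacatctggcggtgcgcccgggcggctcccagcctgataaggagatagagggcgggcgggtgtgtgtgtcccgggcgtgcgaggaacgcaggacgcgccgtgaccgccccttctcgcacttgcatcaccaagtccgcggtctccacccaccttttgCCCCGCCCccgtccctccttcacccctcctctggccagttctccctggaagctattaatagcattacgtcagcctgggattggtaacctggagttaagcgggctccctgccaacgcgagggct
Ccr9: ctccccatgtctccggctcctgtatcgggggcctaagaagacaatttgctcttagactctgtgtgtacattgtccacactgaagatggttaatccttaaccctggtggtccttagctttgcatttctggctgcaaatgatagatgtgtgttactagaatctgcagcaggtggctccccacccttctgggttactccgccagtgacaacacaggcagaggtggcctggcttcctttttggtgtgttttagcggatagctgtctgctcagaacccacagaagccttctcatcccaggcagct
Arpp21: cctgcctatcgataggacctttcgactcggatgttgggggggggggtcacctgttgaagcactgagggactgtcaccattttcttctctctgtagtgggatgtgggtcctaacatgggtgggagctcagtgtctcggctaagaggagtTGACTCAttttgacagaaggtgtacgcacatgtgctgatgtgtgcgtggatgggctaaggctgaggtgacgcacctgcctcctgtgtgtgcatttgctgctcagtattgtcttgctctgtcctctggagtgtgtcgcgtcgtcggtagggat

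The Tnfsf13b window, chr8:10006383-10006682 on the plus strand, has its AP-1 letters at position -127 from the start, inside a peak with 60.0, 43.2, 49.7 and 49.4 normalised reads in preTreg cells, against 1.34, 6.52, 2.30 and 0 in smSP cells. The log2 fold was 4.21 ± 0.42 (adjusted p = 1.34e-10), with no overlap. The Srxn1 window, chr2:152105274-152105573 on the plus strand, holds 2 copies inside its peak, which had 60.6 ± 22.1 in preTreg and 3.28 ± 2.54 in smSP libraries (log2 fold 3.97 ± 0.38). The peak over the Ifng window, chr10:118440796-118441095 on the plus strand, had 87.7, 107, 85.6 and 102 in preTreg cells, against 6.72, 17.4, 11.5 and 16.5 in smSP cells, a log2 fold of 2.86 ± 0.21. Its STAT letters stand at -249. The Nkg7 window, chr7:43436888-43437187 on the plus strand, shares 201 bases with its peak, and its STAT letters at -220 lie outside that peak. The peak had 54.3 ± 7.18 in preTreg and 5.67 ± 3.65 in smSP libraries (log2 fold 3.21 ± 0.32). The Atf3 window, chr1:191183284-191183583 on the minus strand, shares 177 bases with a peak, and its SP/KLF letters at -73 lie outside that peak. The peak had 173 ± 41.3 in preTreg and 31.4 ± 4.99 in smSP libraries (log2 fold 2.41 ± 0.16).

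Peaks fell at the Ccr9 and Arpp21 windows. The Ccr9 window, chr9:123766961-123767260 on the plus strand, had 16.6, 19.3, 15.4 and 21.2 normalised reads in preTreg cells, against 75.2, 46.7, 42.6 and 51.0 in smSP cells, a log2 fold of -1.50 ± 0.22. The Arpp21 window, chr9:112185900-112186199 on the minus strand, had 14.4 ± 4.01 in preTreg and 37.9 ± 2.29 in smSP libraries (log2 fold -1.37 ± 0.25). Its AP-1 letters stand at -102, so a window with these letters can lie under a peak that fell.

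Whether the step from smSP to preTreg differed with CNS4 was tested on the difference within each mouse. Of 72668 peaks 1, which is 0.00138%, was called, and 4218 had an unadjusted p under 0.05 (limma, 2 mice per genotype). The called peak, chr15:75086253-75087052, lies 21109 bp outside Ly6c2, a gene of the Ly6 surface proteins. It had 1899 and 1594 normalised reads in preTreg cells of CNS4-deficient mice and 1882 and 1327 in those of CNS4-sufficient mice, against 2793 and 1793 in smSP cells of CNS4-deficient mice and 1649 and 869 in those of CNS4-sufficient mice. The genotypes overlapped in preTreg cells, and in smSP cells both CNS4-deficient mice lay above both CNS4-sufficient mice. The step of the CNS4-deficient minus that of the CNS4-sufficient mice was -0.76 ± 0.12 on the log2 scale (moderated SE, limma adjusted p = 0.0492). This SE and p draw on the variance of other peaks, so they do not measure the spread of these 4 mice alone. EdgeR also called 1 peak, while DESeq2 and the fit without the mouse block called 0. Without CNS4-deficient mouse 1 or 2 the count was 13 or 72, and without CNS4-sufficient mouse 1 or 2 it was 12 or 15, in fits where the lone mouse is assumed to vary like the other pair. Without CNS4-deficient mouse 1 the peak near Ly6c2 was itself no longer called (difference -0.57, limma adjusted p = 0.088). With 2 mice per genotype, a peak that is not called is not shown to be equal. In the 4 mice taken singly, the median log2 fold of the peaks called higher was 0.56 and 0.58 in the CNS4-deficient and 0.60 and 0.57 in the CNS4-sufficient mice. Those peaks were called from the same 4 mice, so a positive median in each was nearly given by the call. The medians are no test of a genotype difference.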

How the data were processed

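ATAC-seq libraries of 8 samples (preTreg and smSP cells of 4 mice) were compared. Per the submitters' processing notes, the tools were Trimmomatic 0.36 for trimming, STAR 2.5.4b for alignment (build mm10), SAMtools 1.10, the peak caller Genrich, and DESeq2 1.24.0 within R 3.6.3. The sources used here do not say whether reads were shifted for the transposase. The deposited values are a signal, reads per peak divided by the authors' size factor of each library. Whole reads were recovered, since multiplying by the size factor gave whole numbers, within 0.0001 reads, for 100% of values. Starts are printed counted from 1. Low peaks rest on few reads, and their error includes counting error.

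The main test was limma 3.58.1 in R 4.3.3 (trend, robust) on log2(value + 1), with population and mouse as terms, on peaks whose mean reached 10, with Benjamini-Hochberg adjustment over all 72668 at 0.05; folds on this scale understate changes of weak peaks, and a 2-fold change is a log2 fold of 1. The difference by genotype was tested with limma on the 4 differences within mice. Errors and p-values of limma are moderated, which means that they draw on the variance of other peaks as well. The labels give both libraries of a number the same mouse, which is where the pairing comes from; the deviations of paired libraries correlated at 0.0540 in the CNS4-deficient and 0.0334 in the CNS4-sufficient mice. Labels of 1 mouse disagree on smSP and mSP, and titles were used. EdgeR 4.0.16 and DESeq2 1.42.0 on the recovered reads, other scalings, filters, pseudocounts, label readings and subsets of mice were alternatives, and the scripts were tested on simulated data.

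Gene assignment used RefSeq gene positions (GRCm38.p6, no strand): the shortest protein-coding body a peak overlaps, otherwise the nearest gene within 50 kb, which gave 98.8% of all peaks a gene; 76.4% of all peaks overlap a gene, and exonic and intronic peaks were not separated. The promoter table holds 32851 windows of 27025 genes and is not complete; 128 of 171 list genes matched, and the window had to share 100 bases with a peak. Members and lists were chosen with earlier results of these data known. The named peaks are the 6 largest folds per direction, 3 genes per list by median fold with their most changed peak, all peaks of the Foxp3 locus, Il2ra, Il2rb and Cd24a, and the 6 genes per direction with the most 2-fold changes. Other list genes, and the promoters printed, were named after their values were seen. Lists are described by counts and medians without a set test. The results of some list genes are not reported here.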

Additional observations from a re-analysis of the deposited data

Results flagged for a closer look

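In 5 of 171 groups of 4 libraries with a mean of at least 10 at named peaks, 1 library stood apart from the other 3 by Dixon's criterion at the 95% level, which chance gives in about 1 of 20 groups. In preTreg cells the Cish peak had 31.2 normalised reads in CNS4-deficient mouse 2, with a median of 37.8. The Atf3 peak had 117 in CNS4-sufficient mouse 2, with a median of 76.6, and the peak at chrX:7572485-7572749 in Ppp1r3f, beside Foxp3, had 87.3 in CNS4-deficient mouse 2, with a median of 75.3. In smSP cells the Il2ra peak at chr2:11637161-11637295 had 76.1 in CNS4-deficient mouse 2 (median 65.7), and that at chr2:11653750-11653880 had 60.5 in CNS4-deficient mouse 1 (median 40.0). The peak near Ly6c2 was flagged because its step from smSP to preTreg differed between genotypes, by -0.76 on the log2 scale (CNS4-deficient minus CNS4-sufficient).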

How the results depend on the processing

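The reported fit called 35077 peaks. In separate fits the totals were 23939 by DESeq2 (11245 higher, 12694 lower), 35390 by edgeR, 34221 after scaling to equal totals (14563 higher, 19658 lower), 33253 after quantile normalisation, 32725 when the T8 libraries follow their descriptions, 24144 in CNS4-deficient and 27986 in CNS4-sufficient mice alone, and 29273 to 32459 without 1 mouse. Without the replicate block, which the pairing by mouse supplies, 32304 were called. With a log2 fold of at least 1 in either direction, 11069 were counted, 4336 higher and 6733 lower. For the genotype difference, DESeq2 and the fit without the replicate block called 0 peaks, and leaving out 1 mouse gave 12 to 72; the cause was not tested. The peak near Ly6c2 had a log2 fold of -0.36 in the CNS4-deficient mice alone (limma adjusted p = 2.73e-10), against 0.02 over all mice. In the CNS4-sufficient mice alone it was 0.40 (limma adjusted p = 6.57e-06). Each of these fits rests on 2 mice and on variance drawn from other peaks, so the p-values do not measure the spread of those mice alone. Of 1372 combinations of an alternative with 1 of 82 called named peaks, 58 lost the call, in 14 peaks. The median folds of the cell death and TGF-beta lists lay near 0 and changed sign between alternatives.

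The comparison is limited by 2 mice per genotype, by depth at weak peaks, and by gene assignment from position. The 2 stage labels of CD25-negative cells run against Cd24a, so smSP is a label of the libraries rather than a checked stage.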

Other observations

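Some genes held both losses and large gains; they were picked after their values were seen. Tgfbr2, a TGF-beta receptor gene, had 11 peaks lower and 4 higher of 25, with folds from -2.10 to 4.07 on the log2 scale. Nrp1, which encodes neuropilin 1, had 8 lower and 8 higher of 27, with folds from -1.67 to 4.71. Bach2 ranged from -2.24 to 3.13 and Foxp1 from -2.14 to 2.77. The Foxp1 peak that rose, at chr6:99340986-99341177, averaged 35.4 ± 11.2 normalised reads in preTreg, 103 in Treg and 4.44 ± 2.02 in smSP libraries (SD, n = 4), and the Bach2 peak at chr4:32405260-32405373 averaged 61.1 ± 4.08 in preTreg, 84.5 in Treg and 6.74 ± 3.88 in smSP libraries. Maf, a factor of effector and follicular T cells, had 9 of 11 peaks higher and 0 lower, with folds up to 4.50. Batf3 had 1 of 4 peaks higher, with a log2 fold of 3.73.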
